A study of Drosophila melanogaster with 6 samples.

Results

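Complex I, the NADH dehydrogenase of the mitochondrial respiratory chain, was examined through the genes whose symbol starts with ND- in the fly's nomenclature of its subunits. Probe sets whose single annotated symbol started with ND- numbered 35 and stood for 32 genes of 11982 genes with a symbol on the array, each gene taken at its probe set with the highest mean. Of the 32, 27 encode subunits in the fly's standard set, and 5 (ND-20L, ND-24L, ND-51L1, ND-51L2 and ND-B14.5AL) are named as paralogs of a subunit. RNA came from the heart/nephrocyte complex of adult female fruit flies (Drosophila melanogaster), that is, the heart tube with the filtering pericardial cells that flank it. In 1 group the flies had eaten food containing 0.1 M glucosamine, an amino sugar that feeds hexosamine synthesis, for 21 days, and in the other food containing 1.0 M sucrose for the same time, with 3 Affymetrix arrays a group. The labels name 30 females without saying whether they were shared between arrays, and strain and genotype were not given in the sources used here. P-values therefore measure only how these samples vary, possibly for technical reasons. Every difference is between these diets, which differ in sugar and in its concentration, and no array came from flies on another diet. Below, fell and rose mean lower and higher after glucosamine than after sucrose with an adjusted p under 0.05. Genes that did not pass this threshold can have lower values too. Which diet moved a gene cannot be told.

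Complex I takes electrons from NADH, passes them along a chain of iron-sulfur clusters to ubiquinone and pumps protons across the inner mitochondrial membrane. Its peripheral arm has an N module, where NADH is oxidised, and a Q module, where ubiquinone is reduced. Its membrane arm, the P module, moves the protons and has a part proximal to the arm's junction and a distal part. Core subunits carry out the catalysis and are shared with bacteria, some encoded in the nucleus and some in mitochondrial DNA, and accessory subunits surround them. The modules given here are those of the mammalian homologs. Contracting heart muscle and endocytic nephrocytes both draw on respiration for ATP.

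Most complex I subunit RNAs measured here were lower after glucosamine feeding than after sucrose feeding. Of the 27 subunits 26 had enough signal to be tested, and 16 of these were lower past the threshold while none was higher. The same call was made for 8.64% of all 10022 genes and unnamed probe sets tested, and a higher one for 9.92%. The 16 stood at 49.5% to 70.5% of their sucrose mean, with log2 differences of −1.02 to −0.50. The median log2 difference of the 26 tested subunits was −0.65, against −0.03 over everything tested. In 24 of the 26 each glucosamine array lay below each sucrose array, an ordering found for 20.0% of everything tested, and 8 of these 24 did not pass the threshold. The remaining 2, ND-B12 and ND-MLRQ, had overlapping groups and means that were nearly equal. Each difference is the glucosamine mean minus the sucrose mean of log2(intensity + 16), tested two-sided with limma and adjusted over all tested features by Benjamini-Hochberg, with 0.05 as the threshold. With groups of this size 0.1 is the smallest two-sided p an exact permutation test allows for a single gene, so limma's pooling of the spread over genes decides the calls. With the lowest 60% of features left out instead of 40%, 17 of the 26 passed, against 13.7% of what was then tested. The count of 16 became 4, 13 and 7 when glucosamine replicate 1, 2 or 3 was dropped. Of all 10022 features, 866 were called lower with every array, and 281, 631 and 472 in these 3 fits. Dropping sucrose replicate 1, 2 or 3 gave 8, 6 and 10 members, beside 532, 449 and 572 of all features.

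**Figure D1:**
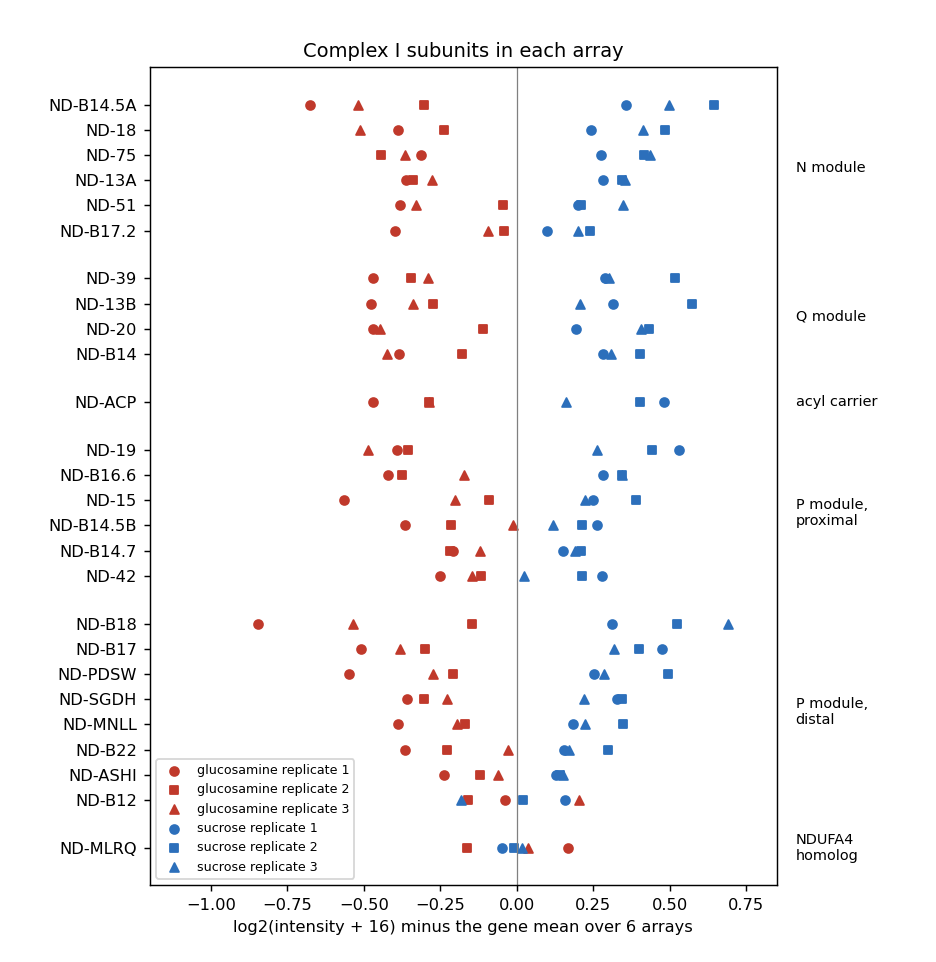
Each row is 1 of the 26 tested subunits, grouped by module, and each point is 1 array's log2(intensity + 16) minus that gene's mean over the 6 arrays, with glucosamine arrays in red and sucrose arrays in blue. Red and blue points separate in 24 rows and mix in the rows of ND-B12 and ND-MLRQ.

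The arrays and the dissected tissue differed in ways that bear on these values. Markers of the tissue were present, with summed intensities of 8377 to 10790 in the glucosamine arrays and 13517 to 17390 in the sucrose arrays for 5 heart genes. Hand made up most of those sums and was the only one of the 5 to pass, at a log2 difference of −0.75 (limma adjusted p = 0.0240), while tup, mid, pnr and H15 overlapped between groups and the median of the 5 was −0.07. For 7 nephrocyte genes the sums were 5532 to 7527 against 21444 to 31009, and 6 of the 7 passed as lower. In bulk samples, fewer cells of a type and less RNA per cell cannot be told apart, and the part of the nephrocyte difference in the complex I values was not tested. Sums of 6 hemocyte genes were 4708 to 8326 and 5196 to 7528, those of 6 fat body genes 90035 to 100090 and 91254 to 111043, and those of 5 muscle genes 8230 to 15504 and 8378 to 11082. Ovary markers summed to 306 to 415 in the glucosamine arrays, and to 7422, 1272 and 277 in sucrose replicates 1, 2 and 3. Gut markers summed to 144, 725 and 4669 in glucosamine replicates 1, 2 and 3, and to 139 to 466 in the sucrose arrays. Neuronal markers summed to 572 to 1095 against 308 to 418, with futsch alone past the threshold, as higher, and testis markers to 279 to 645 against 363 to 857. The signal at the 5′ end relative to the 3′ end, a sign of RNA quality, was lower in each glucosamine array than in each sucrose array for the controls 18S rRNA (mean log2 difference −0.12), GAPDH (−0.15) and eIF-4a (−0.74), and overlapped for actin (−0.27). Further array controls for GAPDH and the actin gene Act5C did not separate the groups in this measure. For Act5C the 5′ signal relative to the 3′ signal was on average lower in the sucrose arrays. The controls thus differed among themselves. The parts of these in the complex I values were not tested. When glucosamine replicate 3 (gut markers) and sucrose replicate 1 (ovary markers) were dropped together, the median over tested members, paralogs included, was −0.63 against −0.62 with all arrays. No member then passed the threshold, against 1.29% of everything tested that was called lower by limma, and 18 of the 29 members tested were lower at an unadjusted p under 0.05, against 13.4% of everything tested.

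The N module takes electrons from NADH. Of its 6 tested subunits 4 fell, ND-51 and ND-B17.2 did not pass, and the module's median difference was −0.70. ND-75, the homolog of human NDUFS1, is the core subunit that carries several of the iron-sulfur clusters. Its intensities were 683.6, 622.9 and 659.2 in the glucosamine arrays, against 1036, 1143 and 1161 in the sucrose arrays. The groups were far apart compared with their spread, and ND-75 fell by 0.75 ± 0.13 on the log2 scale (SE; limma adjusted p = 0.0121). ND-51, the homolog of NDUFV1, is the core subunit that binds NADH and the flavin. It had intensities of 2673, 3381 and 2775 against 4011, 4037 and 4445 in the sucrose arrays. Here too the groups did not overlap, but glucosamine replicate 2 lay nearer to the sucrose arrays, and the difference of −0.50 ± 0.15 (SE) did not pass (limma adjusted p = 0.0595).

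Among the accessory subunits of the N module, ND-B14.5A, the homolog of NDUFA7, had the largest difference of the module. Its intensities were 811.8, 1054 and 907.3 in the glucosamine arrays, against 1676, 2050 and 1850 in the sucrose arrays. Its glucosamine mean was 49.7% of its sucrose mean, with a log2 difference of −0.999 ± 0.16 (SE; limma adjusted p = 0.00944). ND-13A, the homolog of the zinc-binding NDUFS6, had 1595, 1622 and 1693 against 2500, 2611 and 2632 in the sucrose arrays. Its replicates lay close together in both groups, and it fell by 0.65 ± 0.12 (SE; limma adjusted p = 0.0154). ND-18, the homolog of NDUFS4, whose loss causes Leigh syndrome in humans, averaged 649 ± 63.4 in glucosamine arrays and 1108 ± 95.7 in sucrose arrays (SD, n = 3 each) and fell by 0.76. ND-B17.2, the homolog of NDUFA12, differed by −0.36, with a 95% interval from −0.71 to 0.002. ND-B8, the homolog of NDUFA2, was too dim to be tested, with intensities of 7.12, 9.14 and 6.92 against 8.47, 16.4 and 8.55 in the sucrose arrays. Those are near the lowest values on the arrays, so this probe set gives no level for the gene.

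**Figure D2:**
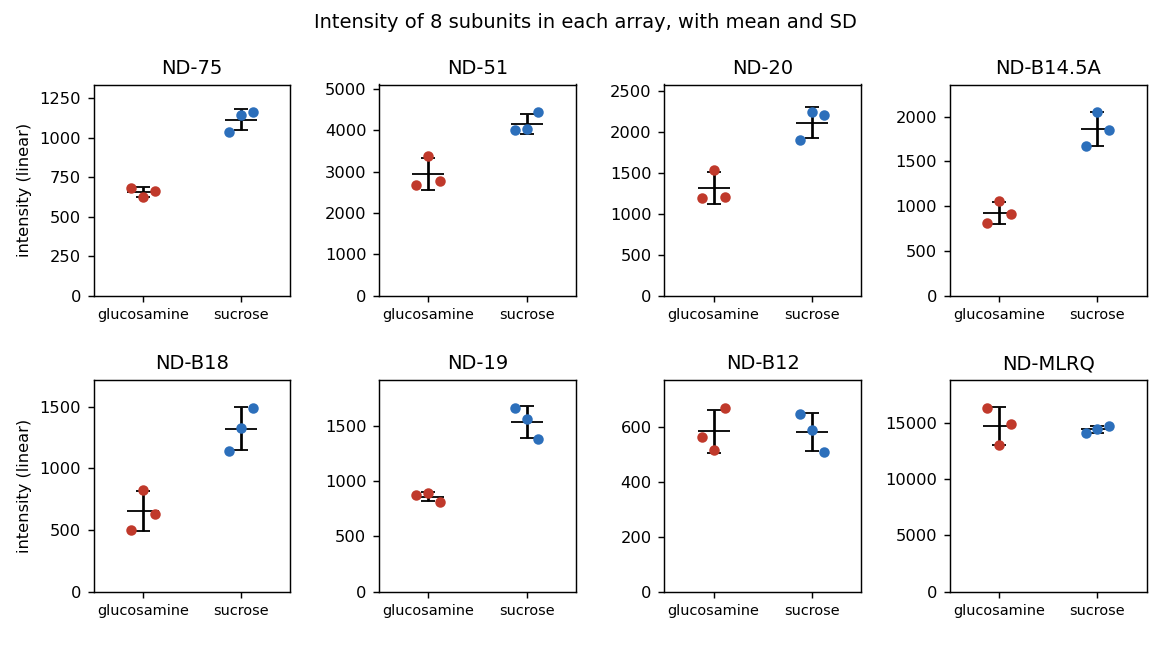
Linear intensity of 8 subunits, a panel each with its own axis from 0, with 1 point per array, glucosamine left and sucrose right, and the mean and SD in black. The diets separate in ND-75, ND-51, ND-20, ND-B14.5A, ND-B18 and ND-19, and overlap in ND-B12 and ND-MLRQ.

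In the Q module all 4 tested subunits fell, and their differences lay within a narrow range of −0.74 to −0.66. ND-20, the homolog of NDUFS7, is the core subunit whose cluster hands electrons to ubiquinone. It had intensities of 1194, 1539 and 1214 in the glucosamine arrays, against 1904, 2247 and 2205 in the sucrose arrays. The groups were separate, with glucosamine replicate 2 above the other glucosamine arrays, and ND-20 fell by 0.69 ± 0.16 (SE; limma adjusted p = 0.0302). ND-39, the homolog of the nucleotide-binding NDUFA9, had 737.1, 805 and 836.1 against 1257, 1477 and 1270 in the sucrose arrays, and fell by 0.74 ± 0.14 (SE; limma adjusted p = 0.0154).

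ND-13B, the homolog of NDUFA5, had intensities of 1033, 1191 and 1138 in the glucosamine arrays, against 1800, 2158 and 1671 in the sucrose arrays, a fall by 0.73. ND-B14, the homolog of NDUFA6, belongs to a family of small proteins that bind the mitochondrial acyl carrier protein. It had 1878, 2170 and 1826 against 2988, 3250 and 3042 in the sucrose arrays, a fall by 0.66, and the groups did not overlap in either gene. The acyl carrier protein itself, ND-ACP or NDUFAB1, sits in complex I and also serves mitochondrial fatty acid and iron-sulfur cluster synthesis. Its brightest probe set averaged 4311 ± 308 in glucosamine arrays and 7013 ± 794 in sucrose arrays (SD, n = 3 each), a fall by 0.70 (limma adjusted p = 0.0229). ND-ACP had 3 probe sets, and the other two had log2 differences of −1.17 and −0.72. The size of its fall therefore depended on the probe set, while each of them was lower in all 3 glucosamine arrays than in any sucrose array. ND-B17 was the other subunit with more than 1 probe set, and both gave −0.79.

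In the proximal part of the membrane arm 2 of 6 tested subunits fell and 4 did not pass, with a median difference of −0.48. ND-19, the homolog of NDUFA8, is a cysteine-rich subunit on the intermembrane-space side. It had 873.8, 895.7 and 816.3 in the glucosamine arrays, against 1669, 1570 and 1383 in the sucrose arrays. The gap between the groups was wide, and ND-19 fell by 0.82 ± 0.14 (SE; limma adjusted p = 0.0111). ND-B16.6, the homolog of NDUFA13, also known as GRIM-19 for a link to cell death in mammals, had 1099, 1137 and 1311 against 1800, 1881 and 1879 in the sucrose arrays. It fell by 0.65 ± 0.13 (SE; limma adjusted p = 0.0211).

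ND-15, the homolog of the cysteine-rich NDUFS5, had intensities of 3898, 5418 and 5022 in the glucosamine arrays, against 6863, 7569 and 6736 in the sucrose arrays. Its groups were separate, with glucosamine replicate 1 well below the other two, and its difference of −0.57 missed the threshold (limma adjusted p = 0.0581). ND-B14.5B (NDUFC2), ND-B14.7 (NDUFA11) and ND-42 (NDUFA10), a subunit related to nucleoside kinases, differed by −0.40, −0.37 and −0.34. All 3 had separate groups and 95% intervals that ended below 0, at −0.05, −0.07 and −0.02, but adjusted p values of 0.112, 0.0848 and 0.133.

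In the distal part of the membrane arm 5 of 8 tested subunits fell, and the differences were spread more widely than in the other modules, from −1.02 to 0.00, with a median of −0.55. ND-B18, the homolog of the cysteine-rich NDUFB7, had intensities of 502.9, 827.7 and 627.2 in the glucosamine arrays, against 1142, 1326 and 1491 in the sucrose arrays. Its groups were separate, but its replicates varied most of the 26 subunits in the glucosamine group, and it fell by 1.02 ± 0.21 (SE; limma adjusted p = 0.0218). ND-B17, the homolog of NDUFB6, had 1694, 1962 and 1853 against 3366, 3191 and 3014 in the sucrose arrays and fell by 0.79 ± 0.13 (SE; limma adjusted p = 0.0112). ND-SGDH, the homolog of NDUFB5, had 2314, 2401 and 2534 against 3731, 3772 and 3461 in the sucrose arrays and fell by 0.59.

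ND-PDSW (NDUFB10), another cysteine-rich subunit, fell by 0.69, and ND-MNLL (NDUFB1) by 0.50 (limma adjusted p = 0.0465). ND-MNLL was near the threshold and passed in 5 of the 17 alternatives given under the dependence on processing, and in 0 of the 6 fits without 1 array. ND-B22 (NDUFB9), of the same acyl-carrier-binding family as ND-B14, and ND-ASHI (NDUFB8) differed by −0.42 and −0.28 without passing (limma adjusted p = 0.0951 and 0.177), though their groups were separate. ND-B12, the homolog of the small membrane subunit NDUFB3, was 1 of the 2 tested subunits whose groups overlapped. Its intensities were 562.3, 516.3 and 668.4 in the glucosamine arrays, against 646.8, 586 and 507.4 in the sucrose arrays. The groups overlapped throughout, with a log2 difference of 0.00 and a 95% interval from −0.39 to 0.39, which holds the difference of ND-B14.7 but not the median of the 26 subunits.

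ND-MLRQ, the homolog of NDUFA4, was the other subunit without a separation. In mammals this protein was first counted in complex I and later found in complex IV. Its intensities were 16349, 13002 and 14920 in the glucosamine arrays, against 14087, 14462 and 14730 in the sucrose arrays. The sucrose arrays lay inside the range of the glucosamine arrays, with a log2 difference of 0.03 ± 0.14 (SE; limma adjusted p = 0.921) and a 95% interval from −0.31 to 0.36. The sign of the difference of ND-MLRQ and of ND-B12 changed with the processing, as given under the dependence on processing.

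**Figure D3:**
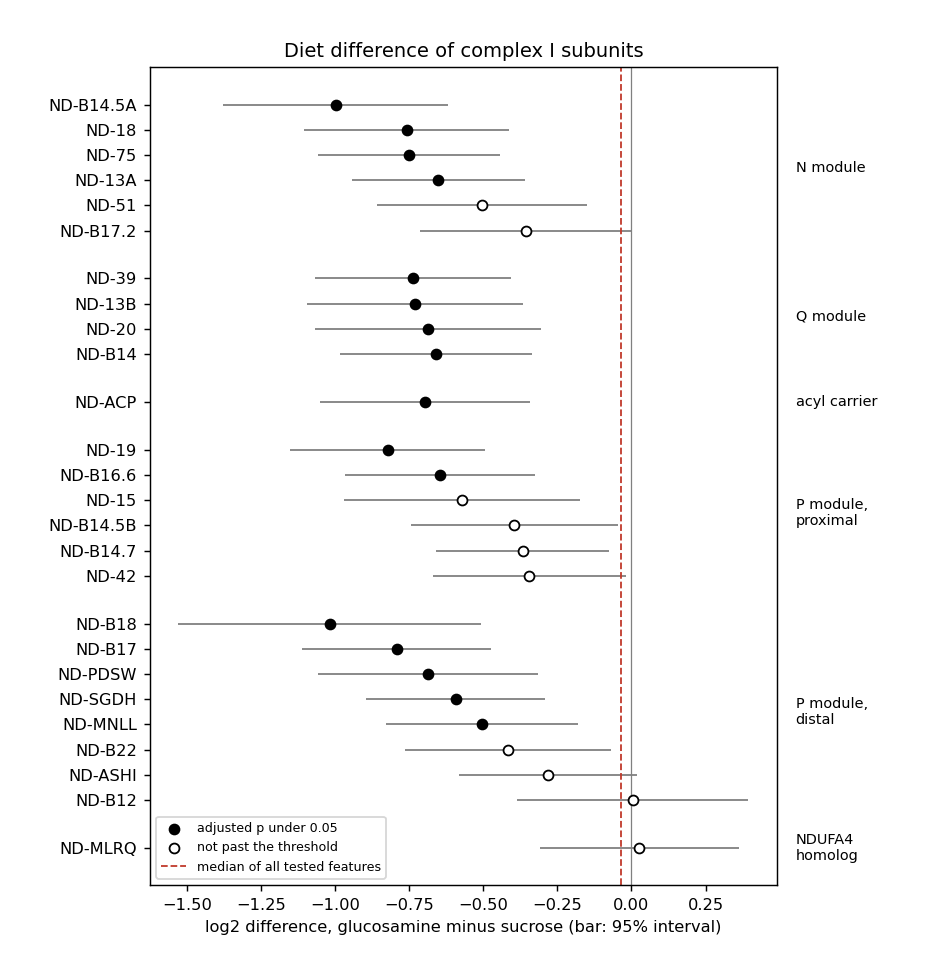
Points are fitted log2 differences, glucosamine minus sucrose, of the 26 tested subunits with 95% intervals, filled where the adjusted p was under 0.05, and the dashed line is the median of all tested features, −0.03. All 4 points of the Q module are filled and lie within −0.74 to −0.66, while the proximal P module has 2 filled points of 6 and the distal one runs from −1.02 to 0.00.

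The modules' medians, −0.70 for N, −0.71 for Q, −0.48 for proximal P and −0.55 for distal P, overlapped in the ranges of their members, and differences between modules were not tested. Within a group the subunits moved together between arrays. Glucosamine replicate 1 was the lowest of its group in 19 of the 26 subunits (73.1%) and in 36.0% of everything tested. Sucrose replicate 1 was the lowest of its group in 17 of the 26 (65.4%) and in 34.99% of everything tested. Sucrose replicate 2 was the lowest of its group in 0 of the 26 and in 29.8% of everything tested. The median deviation of the 26 from their gene means was −0.39, −0.22 and −0.28 in the glucosamine arrays and 0.27, 0.37 and 0.24 in the sucrose arrays. The gap between the groups was thus wider than the range within either of them, which was 0.17 among glucosamine arrays and 0.13 among sucrose arrays. Spread between replicates was small, with a median coefficient of variation of 9.52% in glucosamine arrays and 6.02% in sucrose arrays, against 18.9% and 19.2% over everything tested. That comparison was not matched for signal, and everything tested reached down to a mean intensity of 9.75. Low values in glucosamine replicate 1 were shared by the respiratory complexes II to V. Their median deviations in glucosamine replicates 1, 2 and 3 were −0.48, −0.21 and −0.17, a range of 0.31. Glucosamine replicate 1 also had the highest mean log2 signal of the bioB and bioC spike-in controls, 12.4, against 11.1 and 11.2 in the other glucosamine arrays and 11.5 to 11.8 in the sucrose arrays. The part of this in its low complex I values was not tested. Without it ND-19, ND-75, ND-B14.5A and ND-B17 passed, the same 4 that passed in each of the 6 fits without 1 array. Of the 16 subunits that fell, 10 passed in 3 or fewer of those 6 fits.

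None of the 5 paralogs passed the test. ND-24L and ND-51L2 were bright enough to be tested and had log2 differences of −0.30 and 0.04 (limma adjusted p = 0.405 and 0.890). ND-24L had intensities of 9.23, 14.1 and 7.31 in the glucosamine arrays, against 21.74, 21.97 and 7.221 in the sucrose arrays, so 1 sucrose array lay below all the glucosamine arrays and the groups overlapped. ND-20L, ND-51L1 and ND-B14.5AL were left out as too dim, with intensities between 6.21 and 11.9 over all arrays. The summed intensity of the 5 paralogs was 43 to 54 in the glucosamine arrays and 41 to 66 in the sucrose arrays, near the bottom of the scale in both. Of the 3 subunits measured beside a paralog, ND-20 and ND-B14.5A fell, and ND-51 did not pass.

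Assembly of complex I needs helper proteins that do not stay in it. Of 9 genes listed as assembly factors, all tested, 4 fell, none rose and 5 did not pass, with a median of −0.48. CIA30, the homolog of NDUFAF1, averaged 634 ± 28.4 in glucosamine arrays and 995 ± 96.9 in sucrose arrays (SD, n = 3 each) and fell by 0.63 (limma adjusted p = 0.0241). The other 3 that fell, CG3270, CG8067 and CG17726, had differences of −2.32, −0.83 and −0.93. CG3270 had intensities of 137.6, 231.4 and 381.2 in the glucosamine arrays, against 642.9, 2267 and 1229 in the sucrose arrays, and varied widely in both groups. Nubpl, whose human homolog delivers iron-sulfur clusters to complex I, differed by −0.46 (limma adjusted p = 0.0615). The gene sicily, the homolog of NDUFAF6, differed by 0.30 with overlapping groups (limma adjusted p = 0.285). When single arrays were dropped, the count of 4 became 0 for glucosamine replicates 1 and 2 and sucrose replicates 2 and 3. It became 2 for glucosamine replicate 3 and stayed at 4 for sucrose replicate 1. Over all 10022 features the lower calls went from 866 to between 281 and 631.

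Genes of the other respiratory complexes were lower as well. Of 30 tested nuclear genes of complexes II to V 14 fell (46.7%), none rose, and the median difference was −0.55. For complex I these were 16 of 26 (61.5%) and −0.65. All 30 genes of complexes II to V had a negative difference, and in 27 each glucosamine array lay below each sucrose array. That ordering held for 24 of 26 in complex I and 20.0% of everything tested. Genes that fell numbered 2 of 3 for complex II, 2 of 7 for complex III, 3 of 8 for complex IV and 7 of 12 for complex V, the ATP synthase. Differences were −1.04 for levy of complex IV, −1.02 for ATPsyndelta, an ATP synthase subunit gene, and −0.87 for UQCR-Q of complex III. These were close to those of the subunits of complex I that fell most. Whether complex I differed more than the other complexes was not tested. The count of 14 became 4, 10 and 10 when glucosamine replicate 1, 2 or 3 was dropped, and 7, 6 and 8 when sucrose replicate 1, 2 or 3 was. Over all 10022 features the lower calls went from 866 to between 281 and 631 in these fits.

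Among 11 tested genes of mitochondrial biogenesis and mass 4 fell, none rose and 7 did not pass, with a median of −0.09. Differences in this list ran from −0.91 to 0.45, and 9 of the 11 were negative. TFAM, which packages and transcribes mitochondrial DNA, averaged 264 ± 46.7 in glucosamine arrays and 432 ± 44.8 in sucrose arrays (SD, n = 3 each) and fell by 0.69. The mitochondrial transcription factor gene mtTFB2, the outer membrane channel gene porin and the superoxide dismutase gene Sod2 fell by 0.54, 0.58 and 0.91. By contrast sesB, the ADP/ATP carrier gene, Tom20 and Tom40, import receptor and channel genes, and PolG1, the mitochondrial DNA polymerase gene, had differences of −0.09, −0.09, −0.07 and 0.00 with overlapping groups. When single arrays were dropped, this count of 4 became 0 for glucosamine replicate 1 and sucrose replicates 1 and 2. It became 1 for replicate 3 of either diet and 2 for glucosamine replicate 2, while lower calls over all 10022 features went from 866 to between 281 and 631.

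**Figure D4:**
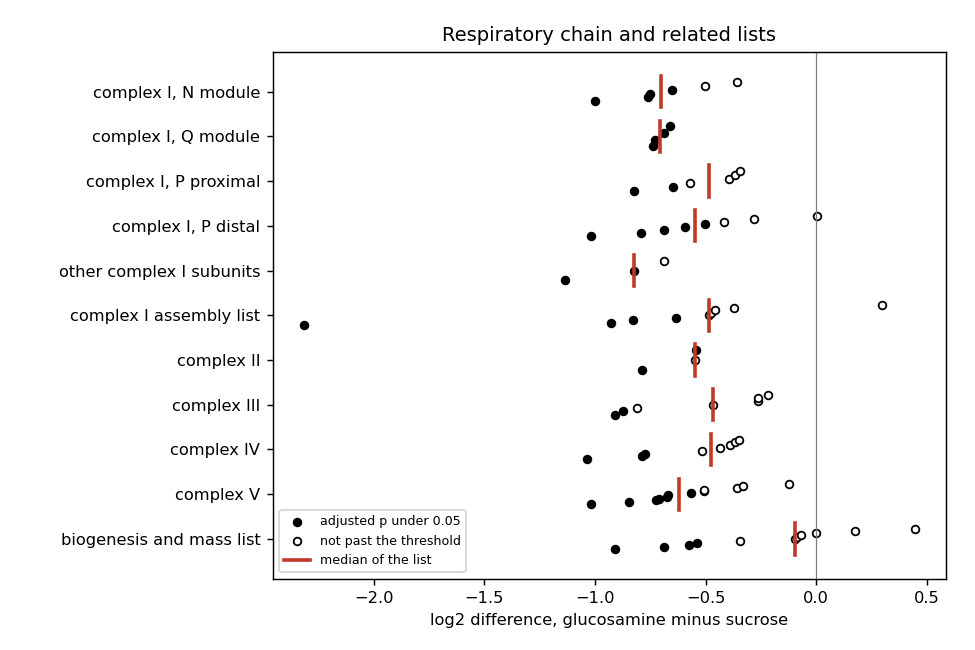
Each point is the log2 difference, glucosamine minus sucrose, of 1 tested gene of a list, filled where its adjusted p was under 0.05, and the red bar is the list's median. Medians run from −0.82 to −0.47 in the respiratory chain and assembly lists and lie at −0.09 for the biogenesis and mass list.

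Brighter subunits tended to have smaller differences. Of the 7 tested subunits with a mean over 5000 on the 6 arrays 1 passed, ND-ACP, and their median difference was −0.37, whereas 15 of the 19 dimmer ones passed, with a median of −0.69. Across the 26 subunits Pearson's r between log2 mean signal and log2 difference was 0.53 and Spearman's rho 0.66. These describe probe sets that share the same 6 arrays and differ in binding strength, so signal does not rank the subunits' RNA. In complexes II to V 3 of 13 brighter and 11 of 17 dimmer genes passed as lower, with medians of −0.37 and −0.73 and a rho of 0.50. Over everything tested the share called lower was 9.43% above that signal and 8.60% at or below it.

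**Figure D5:**
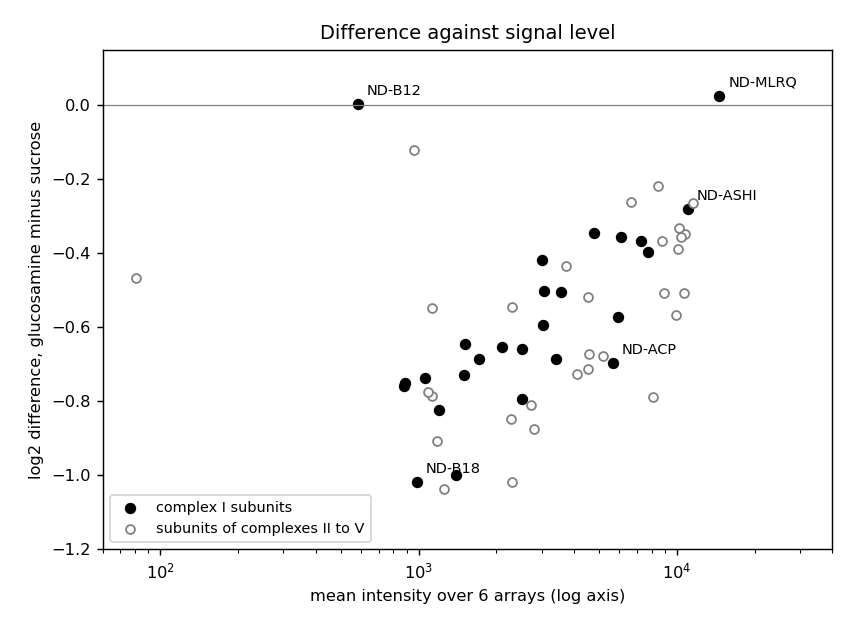
Points are tested genes of complex I (filled) and of complexes II to V (open), by mean intensity over the 6 arrays on a log axis and by log2 difference, glucosamine minus sucrose. Dimmer subunits such as ND-B18 lie lower and brighter ones such as ND-ASHI nearer to 0. The dim ND-B12 lies at 0.00 and the bright ND-MLRQ at 0.03.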

How the data were processed

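Intensity values on a linear scale, 1 per probe set and array, were used as deposited by the authors. RNA was extracted with Trizol and RNeasy MinElute columns, and biotinylated cRNA made by the Affymetrix protocol, per the labels' protocols. How probes were summarised and normalized is not given in the sources used here, though upper quartiles were 222 to 237 in all arrays, so values were not normalized again. Precision is limited by the small number of arrays.

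Of 18952 probe sets, 183 controls and 402 with several symbols were left out. Symbols came from the platform annotation, checked by Entrez identifier against RefSeq, where 13544 of 13647 matched and 0 changed. This left 16702 features, and the 40% with the lowest mean were not tested. Values were tested as log2(intensity + 16), which understates differences of dim genes, in limma 3.58.1 (lmFit, eBayes; R 4.3.3). The fit was tested on simulated data.

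Homologs came from RefSeq synonyms. Of the subunits in the module lists, 7 had no probe set with a single symbol and were not analysed here, nor were the mitochondrially encoded ones. Members, modules and lists were chosen with earlier results of these data known, except 3 subunits with other names, added after seeing the files. Intensities were printed for ND-75, ND-51 and ND-20 and for up to 3 members of each module with the smallest p, and other list genes were named from the 4 with the smallest p or to account for a count. ND-ACP, ND-MLRQ, ND-B12, ND-B8, the paralogs and the genes given for contrast were named after their values were seen. Figures used Python 3.11.15 and matplotlib 3.10.9.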

Additional observations from a re-analysis of the deposited data

How the results depend on the processing

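Over 17 alternatives (3 normalizations, 2 filters, averaged probe sets, a robust prior with a variance trend, a pseudocount of 1, replicate numbers as a block, array weights, each array left out, and glucosamine replicate 3 with sucrose replicate 1 left out) the 16 subunits that fell kept a negative difference in each, and 24 of the 26 tested subunits did. No member was called higher in any of them. The count of 16 was 15 to 19 under the alternatives that kept all arrays and had no block, 4 to 13 with 1 array left out, and 0 with both arrays left out, where fewer samples were fitted. The calls over all features, 1860 with every array, were 777 to 1462 without 1 array and 349 without both. Lower calls among these were 866 with every array, 281 to 631 without 1 array and 129 without both. The members' median, −0.62 with the paralogs that were tested, ran from −0.63 to −0.57 without 1 array and was −0.52 under cyclic loess, and the cause was not tested. Deviations of same-numbered arrays of the diets had correlations of 0.02, −0.12 and −0.05, and those of differently numbered arrays −0.14 to 0.21. With 3 arrays a group these cannot decide whether the numbers pair the arrays. With the replicate block 3 members (ND-19, ND-B14.5A and ND-B18) passed as lower, and 999 features passed, 406 of them as lower. The sign turned, never past the threshold, for ND-B12 to −0.045 under quantile normalization, −0.017 with array weights, −0.017 without both arrays, and from −0.097 to 0.085 without 1 array. It turned for ND-MLRQ to −0.002 without both arrays and from −0.050 to 0.11 without 1, and for ND-51L2 from −0.083 to 0.18 without 1. Signal near the lowest intensities limits ND-B8 and the paralogs.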

Other observations

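Of 3 complex I subunits whose symbol does not start with ND-, 2 fell and the other did not pass. NdufV3, the homolog of an accessory subunit of the N module, had intensities of 751.9, 969.6 and 791.3 in the glucosamine arrays, against 1620, 1537 and 2547 in the sucrose arrays, and fell by 1.14 (limma adjusted p = 0.0191). NdufA3, the homolog of a membrane arm subunit, had 420.1, 464.2 and 524.8 against 812.5, 912.7 and 797.2 in the sucrose arrays, and fell by 0.82 (limma adjusted p = 0.0131). NP15.6, the homolog of NDUFB11 of the distal arm, had 2028, 3177 and 3020 against 4362, 4283 and 4367 in the sucrose arrays. Its groups were separate, and its difference of −0.69 missed the threshold (limma adjusted p = 0.0555).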
